A study of Mus musculus with 4 samples.

Results

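The mitosis and spindle genes described here are 59 of the 21470 genes counted in the inner cell mass (ICM) and the trophectoderm (TE) of mouse embryos around embryonic diapause. They were taken by gene symbol, from a list that sorts into 7 classes: 10 genes of the entry switch, 5 other mitotic kinases, 13 of the kinetochore, checkpoint and passenger complex, 11 of the spindle, 7 of chromosome structure, 8 of cytokinesis and 5 of the anaphase-promoting complex (APC/C). The rule used gene symbols and no measured value, although the genes were chosen with earlier results of these data known. All 59 symbols were found in the table, and 55 of them had enough counts to be tested.

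A cell enters mitosis when cyclin B binds Cdk1 and the Cdc25 phosphatases remove the inhibitory phosphates that Wee1 placed on it. Aurora and Polo-like kinases then separate the spindle poles, condensin and topoisomerase II shape the chromosomes, and kinetochores bind them to spindle microtubules under the watch of the Mad and Bub checkpoint proteins. The APC/C, first with Cdc20 and later with Fzr1, marks securin and the cyclins for destruction, and a contractile ring divides the cell. Most of these transcripts accumulate late in the cell cycle and fade as cells leave it, which is why Mki67 and Top2a serve as proliferation markers. In embryonic diapause the blastocyst waits in the uterus without implanting, and in the mouse its cell division is known to decline strongly while it does.

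The embryos were wild type, sired by B6D2F1 males on ICR females, and were sampled at D10 and at E4. The 4 groups were D10 ICM, D10 TE, E4 ICM and E4 TE, with 5 libraries each. The ICM libraries are labelled as tissue of the embryonic side and the TE libraries as tissue of the extra-embryonic side. In a deposited list of barcodes the E4 libraries are marked before and the D10 libraries day 6, whereas the protocol calls all of the embryos diapause embryos, so the labels conflict on what E4 is. Each library belonged to 1 of 5 litters per time, and ICM and TE libraries of the same number shared a litter. Of the E4 litters 2 still had a zona pellucida and 3 had none, as was the case for every D10 litter. The replicates of a group were barcoded separately and amplified in 1 pool, so pool and group cannot be told apart. How many embryos made up a library is not given, and the p-values reflect the variation among these libraries alone.

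Promoters of 51 of the 59 genes are in the RefSeq table used here (GRCm38.p6, 250 bases before to 50 after each start), and they shared letters that the choice of genes did not use. Shares of promoters given here are shares of genes, and a gene held the letters if any of its promoters did. CCAAT, the box bound by NF-Y, was present on either strand in 72.5% of the members, against 41.1% of all 27025 genes with promoters and 43.1% of 5408 other tested genes. TTTGAA, the core letters of the cell cycle genes homology region (CHR), which recruits the MuvB complexes that act on late cell cycle genes, was present in 68.6%, against 20.2% of all promoters and 13.4% of those of other tested genes. Both sets of letters stood together in 58.8% of the members' promoters, against 7.97% of all promoters. In the promoters of 118 other mitosis genes, from the further list described below, CCAAT was in 52.5%, TTTGAA in 31.4% and both in 19.5%. In 17 of the 51 the starts of the pair were 25 to 40 bases apart, a spacing chosen after the positions were seen, and this held for 1.34% of all promoters. TTTAAA, another CHR form, was in 19.6% of the members' promoters and 14.9% of all. GCGGGAA, letters of an E2F type, was in 1.96% of the members' promoters and 5.29% of all. It was in 11% of those of other tested genes and 25.4% of those of the other mitosis genes. Both strands were searched, matches of different letters may share bases, and each match is a description of letters rather than of a bound site. The following 4 promoters show the letters in a cyclin, a spindle gene, a chromosome gene and an APC/C gene whose values are given below. Each is the gene of its class with the smallest p among those whose window held both sets of letters, so their presence follows from the choice. Windows of Ttk, Cenpa and Racgap1, picked by the same rule, are not printed. Their closest starts were 35, 102 and 17 bases apart, so Cenpa and Racgap1 lay outside the spacing. They run 5′ to 3′ on the gene's strand from 120 bases before to 30 bases after the start, and capitals mark CCAAT or its reverse ATTGG and TTTGAA or its reverse TTCAAA.
Ccnb2 (chr9:70421525-70421674, minus strand): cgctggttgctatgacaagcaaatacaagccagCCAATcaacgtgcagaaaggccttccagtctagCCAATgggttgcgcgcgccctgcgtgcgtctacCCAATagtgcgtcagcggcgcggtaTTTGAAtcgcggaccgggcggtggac
Hmmr (chr11:40733408-40733557, minus strand): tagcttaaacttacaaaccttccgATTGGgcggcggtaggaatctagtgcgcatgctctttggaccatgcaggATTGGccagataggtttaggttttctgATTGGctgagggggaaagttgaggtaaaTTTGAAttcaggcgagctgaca
Top2a (chr11:99024160-99024309, minus strand): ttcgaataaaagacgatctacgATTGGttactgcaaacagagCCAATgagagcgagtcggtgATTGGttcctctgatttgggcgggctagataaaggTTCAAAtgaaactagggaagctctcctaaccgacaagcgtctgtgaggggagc
Ube2c (chr2:164769809-164769958, plus strand): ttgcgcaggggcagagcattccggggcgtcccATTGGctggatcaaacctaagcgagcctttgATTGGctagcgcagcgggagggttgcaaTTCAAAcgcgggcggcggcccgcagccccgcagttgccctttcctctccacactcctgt
The Ccnb2, Hmmr and Top2a windows each hold 3 CCAAT boxes and 1 TTTGAA, and the Ube2c window holds 2 and 1.

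Total counts ran from 144276 to 1010354 per library, and levels are in CPM, counts scaled by the TMM library size. The limit that a count of 0 allows, 3 counts, was worth between 2.97 and 20.8 CPM, depending on the library. Those limits use the library total without the TMM factor. Epiblast markers (8 genes, among them Sox2 and Nanog) summed to 571 to 1048 CPM in D10 ICM and 1268 to 2593 CPM in E4 ICM, and stayed at or below 50.2 CPM in every TE library. Markers of the trophectoderm (8 genes, among them Cdx2 and Gata3) were present in every ICM library, at a sum of 3268 to 5181 CPM in D10 ICM and 1957 to 2837 CPM in E4 ICM. They summed to 6839 to 9142 CPM in D10 TE and 6730 to 7558 CPM in E4 TE. Primitive endoderm markers (8 genes, among them Sox17 and Sparc) averaged 5799 CPM in D10 ICM and 2027 CPM in E4 ICM, with 246 CPM in D10 TE and 228 CPM in E4 TE. Single markers did not all follow their sum. Of the epiblast markers Sox2 alone was not lower in D10 ICM, at 289 CPM against 265 CPM in E4 ICM. Sparc averaged 4488 CPM in D10 ICM and 1121 CPM in E4 ICM. Gata6 and Pdgfra, also of the primitive endoderm, averaged 160 and 140 CPM in D10 ICM and 341 and 148 CPM in E4 ICM. Of the trophectoderm markers Elf5 alone was higher in D10 ICM than in D10 TE, at 154 CPM against 66.4 CPM. Of the 4 blood markers Hba-a1 reached 124 CPM in D10 ICM replicate 4, and the 4 together stayed at or below 77.8 CPM in every other library. The part of these mixtures in the results below was not tested.

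The 59 genes together were lowest in D10 TE. Their summed level was 6095, 5978, 5203, 7731 and 5303 CPM in D10 ICM replicates 1 to 5, and 3799, 3591, 1873, 2128 and 3184 CPM in D10 TE replicates 1 to 5. It was 7120, 6440, 7284, 7302 and 8783 CPM in E4 ICM replicates 1 to 5, and 5797, 6638, 3804, 2921 and 5311 CPM in E4 TE replicates 1 to 5. Every D10 TE library lay below every ICM library of either time, while D10 TE and E4 TE overlapped through E4 TE replicate 4. The sum averaged 6062 ± 1013 CPM in D10 ICM, 2915 ± 868 CPM in D10 TE, 7386 ± 857 CPM in E4 ICM and 4894 ± 1509 CPM in E4 TE (SD, n = 5 each). As a share of all counts this was 0.586% in D10 ICM, 0.279% in D10 TE, 0.811% in E4 ICM and 0.490% in E4 TE. In bulk tissue, fewer dividing cells and less of each transcript per cell cannot be told apart.

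**Figure D1:**
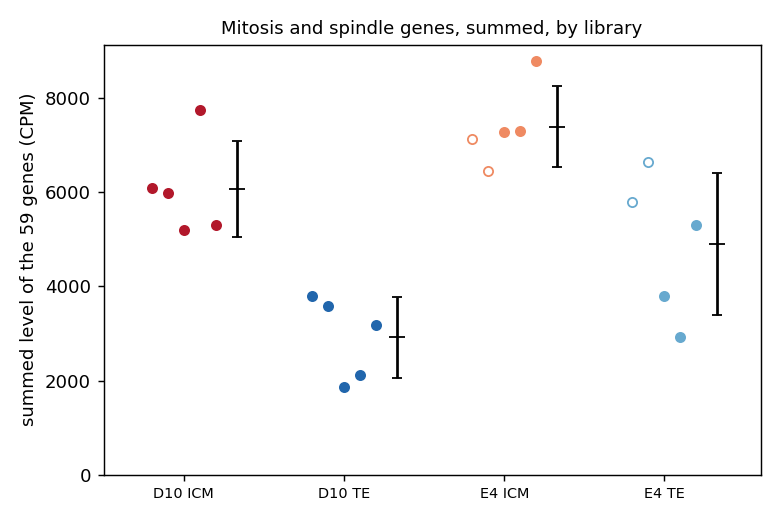
Summed level of the 59 mitosis and spindle genes in CPM (y axis) for each library, by group (x axis). Points are libraries, open points come from litters with a zona pellucida, and bars are the mean ± SD of 5 libraries. The 5 D10 TE libraries lie between 1873 and 3799 CPM, below all 10 ICM libraries.

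The classes did not share 1 pattern. Summed over the 7 chromosome structure genes the level was 1178 ± 165 CPM in D10 ICM and 1156 ± 302 CPM in E4 ICM, and 572 ± 192 CPM in D10 TE and 636 ± 207 CPM in E4 TE, so it was close between the times in both tissues. Summed over the 5 kinases it was 289 ± 112 CPM in D10 ICM and 514 ± 79.9 CPM in E4 ICM, and 111 ± 49.9 CPM in D10 TE and 344 ± 137 CPM in E4 TE. The kinetochore class had 783 ± 213 CPM in D10 TE and 1387 ± 380 CPM in E4 TE (SD, n = 5 in each group).

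**Figure D2:**
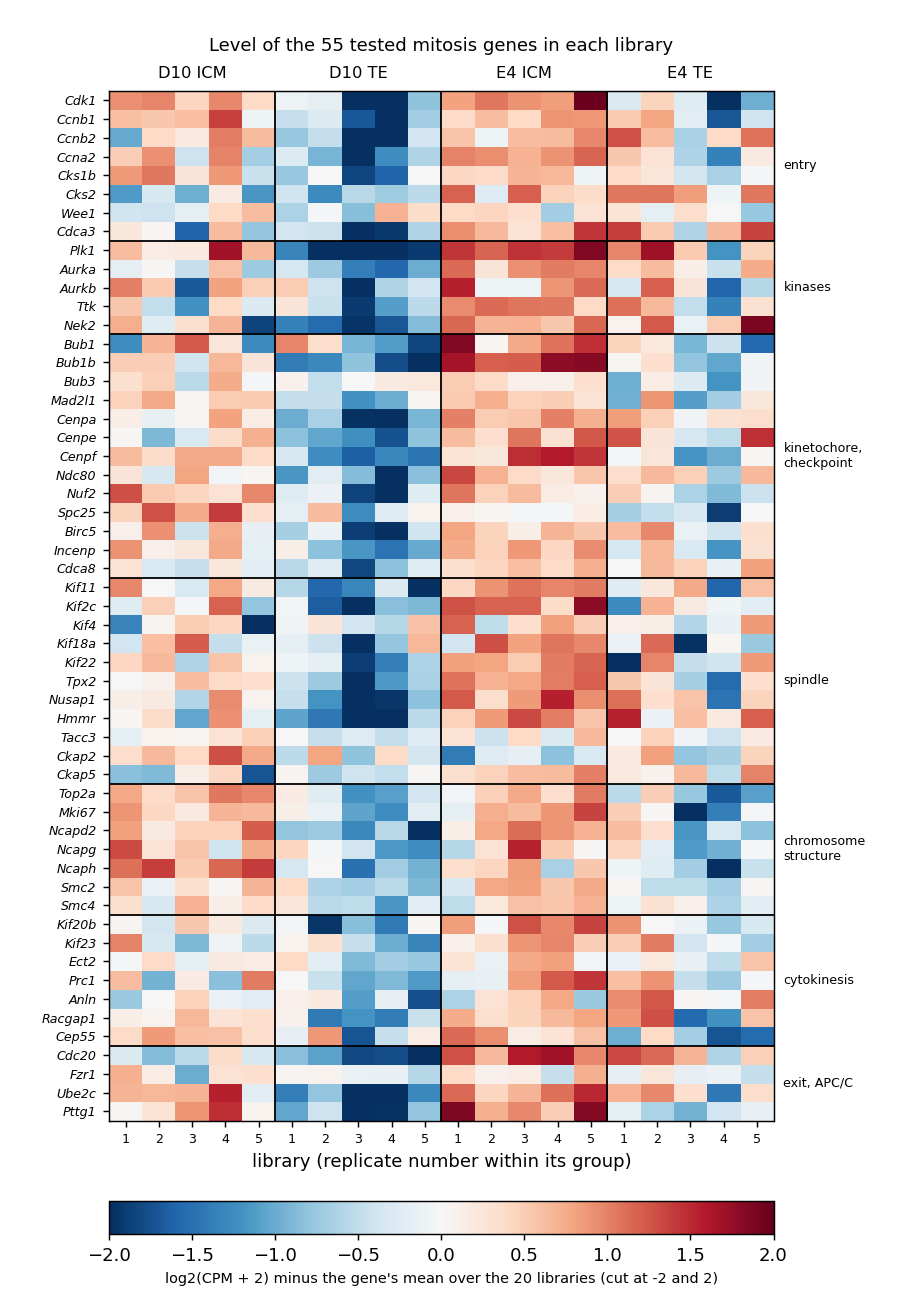
Level of the 55 tested genes in each of the 20 libraries, as log2(CPM + 2) minus the gene's mean over all libraries (colour), with genes in rows by class and libraries in columns by group. The D10 TE columns are mostly blue, deepest in replicates 3 and 4, and replicate 4 is the bluest of the E4 TE columns, while Tacc3 stays near white throughout.

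How the mitotic transcripts of the trophectoderm stood at D10 relative to E4 was the first comparison. In edgeR's quasi-likelihood test with Benjamini-Hochberg adjustment over all 6943 tested genes, 17 of 55 genes fell (30.9%) and 0 rose, against 9.89% of all tested genes that fell and 11.9% that rose. No gene rose at an unadjusted p under 0.05, nor with the DESeq2 Wald test or limma voom. The median log2 fold change of the 55 was -0.72, with 47 negative and 8 positive, against a median of 0.02 over all tested genes. For 8 of the 55 every D10 TE library was below every E4 TE library, a pattern shown by 6.6% of all tested genes, and for 0 of the 55 every library was above, against 8.6%.

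In the entry class 3 of 8 tested genes fell in the TE, and the kinase at its core was not among them. Cdk1, the kinase that drives entry, had 217, 202, 34.8, 56.9 and 132 CPM in D10 TE replicates 1 to 5, and 189, 316, 196, 42.3 and 117 CPM in E4 TE replicates 1 to 5. The groups overlapped, with a log2 fold change of -0.40 ± 0.43 (SE, adjusted p = 0.546). Its partner Ccnb1, cyclin B1, had 112, 127, 46.4, 36.8 and 95.3 CPM in D10 TE, and 222, 268, 132, 46.1 and 117 CPM in E4 TE, with a log2 fold change of -0.87 ± 0.37 (adjusted p = 0.0967). The genes that fell were Cdca3, which triggers destruction of Wee1 (-1.73 ± 0.41, adjusted p = 0.00354), Ccnb2, cyclin B2 (-1.71 ± 0.41, adjusted p = 0.00381), and Cks2, a small Cdk1 subunit (-1.63 ± 0.44, adjusted p = 0.00929). Cdca3 had 52.5, 50.9, 11.6, 16.7 and 45 CPM in D10 TE, and 183, 100, 44.9, 110 and 179 CPM in E4 TE, so only E4 TE replicate 3 reached into the D10 range. Cks2 had few counts, 18 over the D10 TE group and 32 over the E4 TE group. With libraries thinned to the smallest total, the calls of Cdca3 and Ccnb2 were lost (adjusted p = 0.171 and 0.0831).

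In the kinase class 3 of 5 genes fell, and Plk1 and Nek2 had the largest fold changes of the 55. Plk1, the Polo-like kinase of spindle assembly and mitotic exit (ENSMUSG00000030867, chr7:122159439-122169873 of GRCm38, plus strand), had 21, 11.8, 5.8, 0 and 13.2 CPM in D10 TE, and 111, 184, 80.3, 23.1 and 75.9 CPM in E4 TE. The library at 0 allows up to 5.18 CPM by its total without the TMM factor. All D10 TE libraries lay below all E4 TE libraries, with 26 counts over the D10 TE group and 123 over the E4 TE group, and the log2 fold change was -3.12 ± 0.53 (adjusted p = 0.000117). Nek2, a kinase of centrosome separation, had 7, 5.9, 3.9, 5 and 10.6 CPM in D10 TE, and 22.2, 52, 18.9, 30.7 and 82.8 CPM in E4 TE. It too did not overlap, and fell by 2.53 ± 0.47 on the log2 scale (adjusted p = 0.000309). Aurka, the kinase of the spindle poles, fell by 1.26 ± 0.29 (adjusted p = 0.0023), a call lost with thinned libraries (adjusted p = 0.582). Aurkb and the checkpoint kinase Ttk had log2 fold changes of -0.48 ± 0.56 and -0.72 ± 0.46 with adjusted p of 0.589 and 0.277.

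In the kinetochore and passenger class 6 of 13 genes fell. Cenpa, the histone variant that marks centromeres, had 105, 133, 52.2, 46.9 and 111 CPM in D10 TE, and 378, 292, 201, 259 and 269 CPM in E4 TE. The groups were apart without overlap and the log2 fold change was -1.63 ± 0.27, with the smallest adjusted p of the comparison among the members (8.78e-05). The kinetochore motor Cenpe fell by 1.67 ± 0.38 (adjusted p = 0.00235), and the microtubule-binding Ndc80 by 1.32 ± 0.38 (adjusted p = 0.0134, and 0.0723 without the zona litters of E4). The checkpoint gene Bub1b fell by 1.22 ± 0.42 (adjusted p = 0.0433), at 6.82 ± 3.34 CPM in D10 TE and 18.5 ± 7.64 CPM in E4 TE (SD, n = 5 each), a call lost without D10 TE replicate 1, 2, 4 or 5 or without E4 TE replicate 1, 2 or 5. Birc5 (survivin) and Cdca8 (borealin), subunits of the chromosomal passenger complex, fell by 1.17 ± 0.34 and 1.04 ± 0.25 (adjusted p = 0.0129 and 0.00397). The call of Birc5 was lost without the zona litters and with thinned libraries (adjusted p up to 0.184). Bub1, Bub3 and Spc25 had positive log2 fold changes of 0.22, 0.43 and 0.59 that did not pass.

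In the spindle class 2 of 11 genes fell, and all 11 log2 fold changes were negative. Hmmr, a microtubule-binding protein of the spindle poles, had 15.8, 11.8, 3.9, 6.7 and 23.8 CPM in D10 TE, and 106, 32, 54.3, 40.4 and 82.8 CPM in E4 TE. Its groups did not overlap and it fell by 2.28 ± 0.42 on the log2 scale (adjusted p = 0.000274). Nusap1, which bundles spindle microtubules, fell by 1.62 ± 0.47 (adjusted p = 0.015), a call lost with limma voom and without the zona litters of E4 (adjusted p up to 0.113). Tpx2, the activator of Aurora A, had 56, 45.1, 15.5, 33.5 and 47.7 CPM in D10 TE, and 111, 92.1, 47.3, 25 and 96.6 CPM in E4 TE, which overlap through E4 TE replicates 3 and 4.

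None of the 7 chromosome structure genes passed in the TE, and their median log2 fold change was 0.07. Top2a, topoisomerase II alpha, had 233, 176, 89, 97.1 and 159 CPM in D10 TE, and 144, 292, 123, 63.4 and 96.6 CPM in E4 TE. Mki67, the Ki-67 protein that coats mitotic chromosomes, had 137, 116, 60, 51.9 and 109 CPM in D10 TE, and 178, 128, 16.5, 48 and 124 CPM in E4 TE. Both overlapped widely, with log2 fold changes of 0.09 ± 0.32 and 0.07 ± 0.40 (adjusted p = 0.885 and 0.933). The condensin subunits Ncapd2 and Smc4 had -0.83 ± 0.35 and -0.29 ± 0.26 (adjusted p = 0.0888 and 0.466).

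In the cytokinesis class 1 of 7 tested genes fell. Anln, the anillin scaffold of the contractile ring, had 82.3, 88.2, 34.8, 68.6 and 21.2 CPM in D10 TE, and 150, 184, 78, 74.9 and 159 CPM in E4 TE. It fell by 1.04 ± 0.35 (adjusted p = 0.0333), and the call was lost without D10 TE replicate 3 or 5 or without E4 TE replicate 1, 2 or 5. It was also lost with thinned libraries and without the zona litters of E4 (adjusted p up to 0.257). Racgap1, of the central spindle, had -1.05 ± 0.41 (adjusted p = 0.0656). Cep55, which recruits the abscission machinery, had 21, 45.1, 5.8, 16.7 and 26.5 CPM in D10 TE, and 11.1, 32, 14.2, 5.8 and 6.9 CPM in E4 TE, and its log2 fold change of 0.73 was the highest of the 55.

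In the APC/C class 2 of 4 tested genes fell. Ube2c, the E2 enzyme that primes APC/C substrates, had 42, 64.6, 9.7, 20.1 and 45 CPM in D10 TE, and 183, 220, 142, 40.4 and 145 CPM in E4 TE, and fell by 1.97 ± 0.42 (adjusted p = 0.00141). Only E4 TE replicate 4 reached into the D10 range. Cdc20, the APC/C activator of anaphase, had 21, 17.6, 9.7, 10 and 7.9 CPM in D10 TE, and 100, 88.1, 63.8, 25 and 55.2 CPM in E4 TE, with no overlap, and fell by 2.20 ± 0.38 (adjusted p = 0.000157). The 3′ end of Cdc20 overlaps Elovl1 on the opposite strand, and whether counting used strand is not given, so its level is uncertain. Pttg1, securin, had a log2 fold change of -0.68 ± 0.37 (adjusted p = 0.2), and Fzr1, the activator of late mitosis and G1, one of -0.01 ± 0.26 (adjusted p = 0.983). Without the 2 zona litters of E4, 11 of the members fell in the TE, and the calls of Anln and Bub1b were also among those lost. That of Bub1b was lost with limma voom and the DESeq2 Wald test too. The 17 calls numbered 15 to 22 when any 1 of the 20 libraries was left out.

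**Figure D3:**
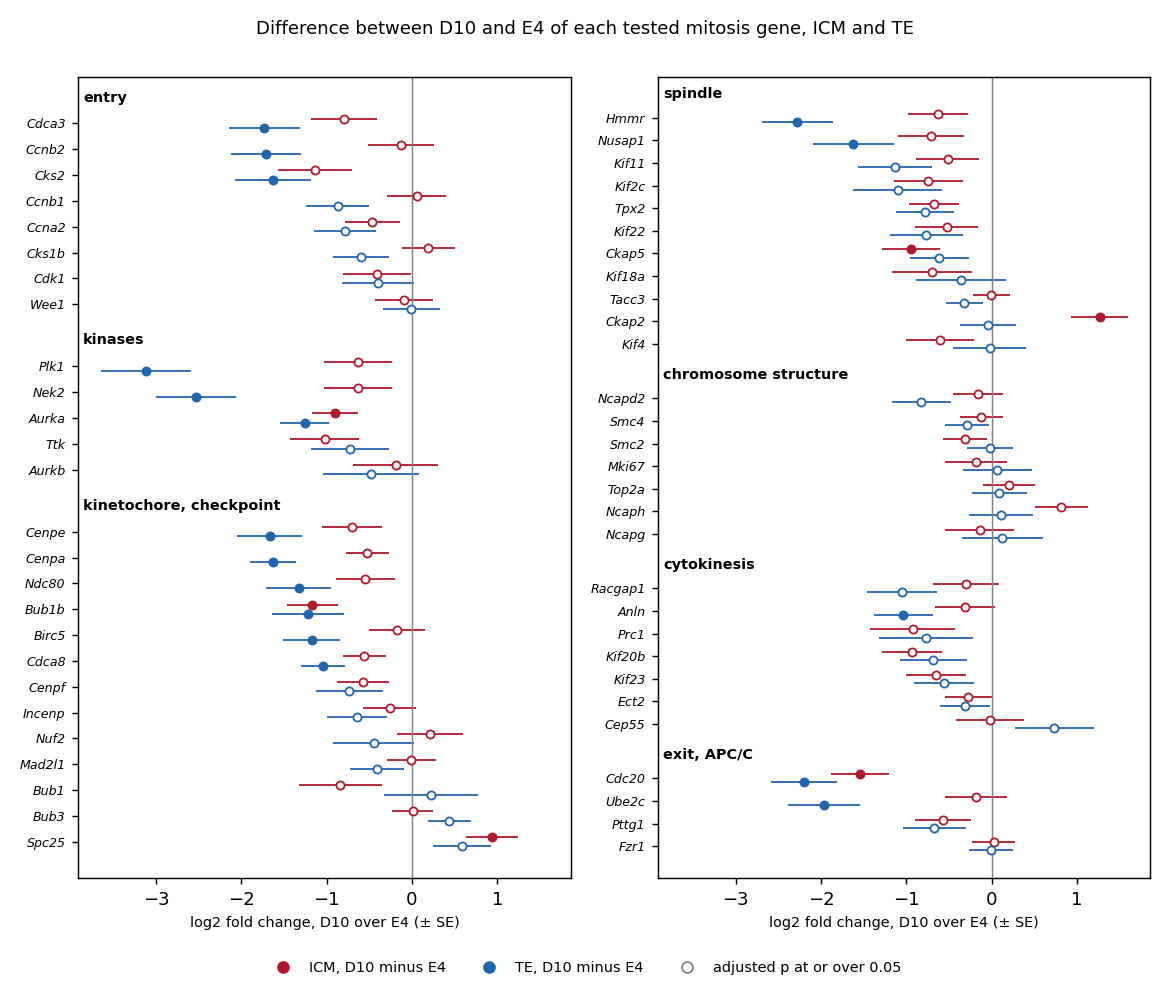
Log2 fold change of D10 over E4 (x axis, ± SE) for each of the 55 tested genes (y axis, by class) in the ICM (red) and the TE (blue), with filled points where the adjusted p was under 0.05. The blue points of Plk1, Nek2, Hmmr, Cdc20 and Ube2c lie between -3.12 and -1.97, and those of Top2a, Mki67, Smc2 and Ncapg lie within 0.12 of 0.

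The same comparison in the ICM gave few calls. By edgeR's quasi-likelihood test 4 of 55 genes fell (7.27%) and 2 rose (3.64%), against 9.97% of all tested genes that fell and 13.7% that rose, so the share called was near or under the background. The median log2 fold change of the 55 was -0.46, with 46 negative and 9 positive, against -0.003 over all tested genes. The 4 that fell were Cdc20 (-1.54 ± 0.34, adjusted p = 0.00164), Bub1b (-1.17 ± 0.30, adjusted p = 0.00578), Ckap5, a microtubule polymerase (-0.95 ± 0.34, adjusted p = 0.0454), and Aurka (-0.91 ± 0.27, adjusted p = 0.016). The call of Ckap5 was lost in 17 of the 20 fits that left out 1 library, and that of Aurka without D10 ICM replicate 5. In the main fit Aurka, Bub1b and Cdc20 thus fell in both tissues. Aurka was lost in both when libraries were thinned to the smallest total (adjusted p = 0.675 in the ICM and 0.582 in the TE). The limits of Bub1b and Cdc20 in the TE are given above. In 2 of the 55 every D10 ICM library was above every E4 ICM library and in 4 every one was below, as for 7.92% and 6.54% of all tested genes. Cdc20 had 31.7, 20.6, 26.7, 50.8 and 30.8 CPM in D10 ICM, and 97.6, 62.3, 122, 130 and 77.9 CPM in E4 ICM, without overlap. Bub1b had 31.7, 31.7, 16, 35.9 and 26.4 CPM in D10 ICM, and 73.2, 52.4, 53, 80.8 and 82 CPM in E4 ICM, also without overlap.

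The 2 genes that rose in the D10 ICM were among 9 with a positive log2 fold change. Ckap2, a spindle pole protein that stabilises microtubules (ENSMUSG00000037725), averaged 195 ± 55.9 CPM in D10 ICM and 80.6 ± 25.9 CPM in E4 ICM (SD, n = 5 each). Every D10 ICM library, at 149 CPM or more, was above every E4 ICM library, at 104 CPM or less, and Ckap2 rose by 1.27 ± 0.33 on the log2 scale (adjusted p = 0.00706). Spc25, a subunit of the Ndc80 complex that binds spindle microtubules, averaged 119 ± 40.2 CPM in D10 ICM and 64.9 ± 3.6 CPM in E4 ICM. It rose by 0.94 ± 0.31 (adjusted p = 0.0277). The call was lost without D10 ICM replicate 2 or 4, without E4 ICM replicate 3 or 4, without the zona litters of E4, and with thinned libraries. Ndc80 and Nuf2, the partners of Spc25 in that complex, had log2 fold changes of -0.55 ± 0.35 and 0.21 ± 0.39 (adjusted p = 0.274 and 0.74).

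None of the other members passed between the times in the ICM. Plk1 had 86, 61.8, 64.1, 182 and 88.1 CPM in D10 ICM, and 152, 127, 155, 150 and 205 CPM in E4 ICM. Only D10 ICM replicate 4 reached the E4 range, and the log2 fold change was -0.63 ± 0.40 (adjusted p = 0.271). Cdk1 had 439, 460, 315, 456 and 308 CPM in D10 ICM, and 409, 486, 435, 418 and 907 CPM in E4 ICM, with a log2 fold change of -0.41 ± 0.40 (adjusted p = 0.49). Ccnb1, Mki67 and Top2a had log2 fold changes of 0.06 ± 0.34, -0.18 ± 0.36 and 0.20 ± 0.30, with adjusted p of 0.933, 0.758 and 0.674.

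Tpx2 and Cdca8 were the other 2 genes with every D10 ICM library below every E4 ICM library, at -0.68 ± 0.30 and -0.56 ± 0.25 (adjusted p = 0.1 and 0.107). In the entry class Cks2 had -1.13 ± 0.43 (adjusted p = 0.0592) and Cdca3 had -0.80 ± 0.39 (adjusted p = 0.14). Ttk had -1.02 ± 0.41 (adjusted p = 0.0694), and the cytokinesis motors Kif20b and Kif23 had -0.94 ± 0.35 and -0.65 ± 0.35 (adjusted p = 0.0535 and 0.18). Among chromosome genes the condensin subunit Ncaph had 0.81 ± 0.31 (adjusted p = 0.0583) and Smc2 had -0.31 ± 0.26 (adjusted p = 0.411). Pttg1 had -0.57 ± 0.33 (adjusted p = 0.215). Calls in the ICM numbered 2 to 7 lower and 1 to 3 higher when any 1 library was left out, the fewest lower without D10 ICM replicate 5 and the fewest higher without D10 ICM replicates 2 or 4 or E4 ICM replicate 4.

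Whether the change from E4 to D10 differed between the tissues was tested as an interaction, which compares the ICM change with the TE change. Plk1 passed, with a difference of 2.49 ± 0.67 on the log2 scale (adjusted p = 0.0265), and it was 1 of 55 members (1.82%), against 3.15% of all tested genes in that direction. In the opposite direction 0 members passed, against 1.83% of all tested genes, and none did at an unadjusted p under 0.05, with DESeq2 or with voom. The positive direction held 8 members at an unadjusted p under 0.05, 2 calls by the DESeq2 Wald test and 0 by limma voom. The shares of all tested genes under these settings were not computed, so these counts cannot be read as an excess. Below the threshold came Nek2 (1.90 ± 0.61, adjusted p = 0.0724), Ube2c (1.78 ± 0.56, adjusted p = 0.0635), Hmmr (1.65 ± 0.55, adjusted p = 0.0801) and Cenpa (1.11 ± 0.36, adjusted p = 0.0776). With litter as a block there were 2 calls, Plk1 at 2.30 (adjusted p = 0.0426) and Ckap2 at 1.27 (adjusted p = 0.0493). The Plk1 call was lost without D10 ICM replicate 4 (2.04, adjusted p = 0.0682), without E4 TE replicate 2 (2.11, adjusted p = 0.059) and without the zona litters of E4 (1.75, adjusted p = 0.226).

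**Figure D4:**
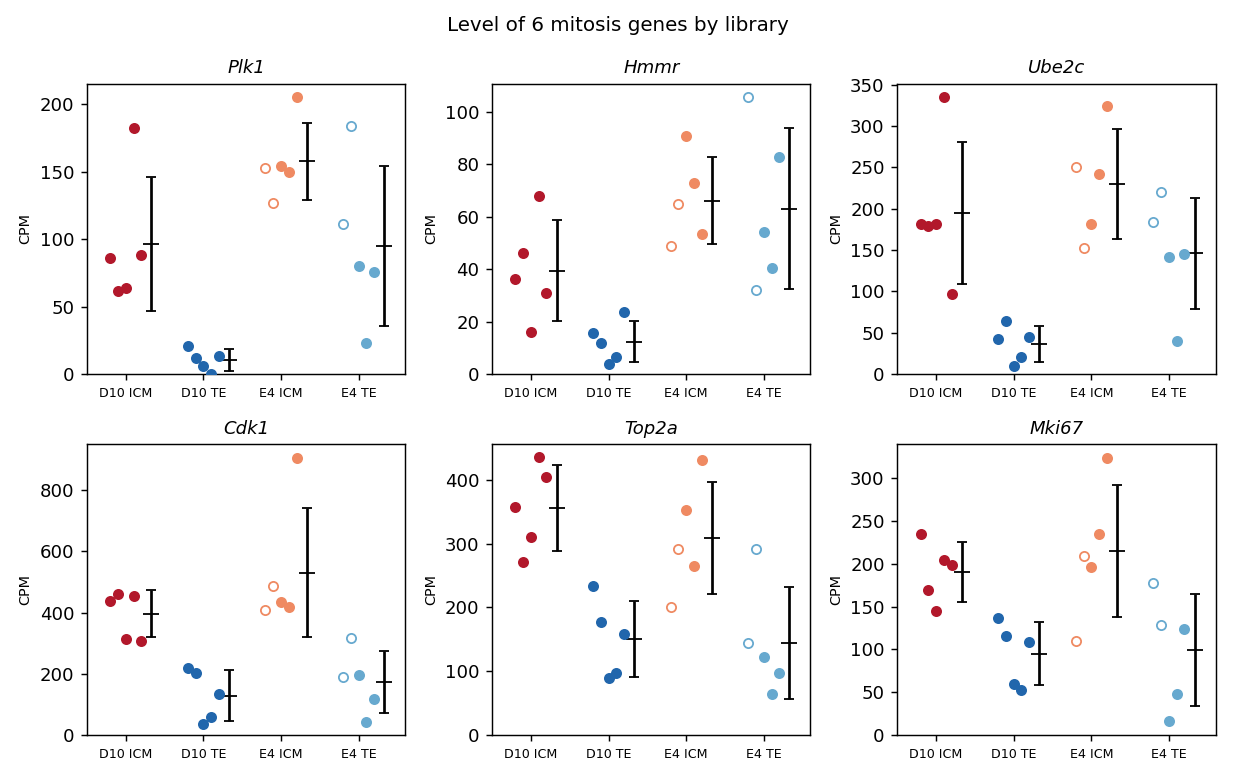
Level in CPM (y axis, from 0) of Plk1, Hmmr, Ube2c, Cdk1, Top2a and Mki67 in each library, by group (x axis), with open points for litters with a zona pellucida and bars for the mean ± SD of 5 libraries. Plk1 lies at or below 21 CPM in D10 TE, under all other libraries, while Top2a and Mki67 overlap between D10 TE and E4 TE.

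At D10 more members differed between the tissues than in any of the other comparisons. By edgeR's quasi-likelihood test 32 of 55 genes were higher in the ICM (58.2%) and 0 lower, against 12.9% and 12.6% of all tested genes. No gene was lower at an unadjusted p under 0.05, nor with DESeq2 or limma voom. The median log2 fold change was 1.11, with 54 positive and 1 negative, against 0.01 over all tested genes. For 15 of the 55 every D10 ICM library was above every D10 TE library, as for 7.89% of all tested genes, and for 0 it was below, against 8.41%. The calls comprised 5 of 8 entry genes, 3 of 5 kinases, 10 of 13 kinetochore genes, 6 of 11 spindle genes, 4 of 7 chromosome genes, 1 of 7 cytokinesis genes and 3 of 4 APC/C genes. Fitted with litter as a block the count was 37, with Cdca3, Cdca8, Ckap2, Smc2 and Smc4 added. The share of all tested genes called in that fit was not computed.

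Plk1 stood furthest apart between the D10 tissues, with 61.8 CPM or more in every D10 ICM library against 21 CPM or less in every D10 TE library (log2 fold change 3.29 ± 0.51, adjusted p = 2.28e-05). Ube2c came next, with 181, 179, 182, 335 and 96.9 CPM in D10 ICM against 64.6 CPM or less in D10 TE (2.48 ± 0.41, adjusted p = 5.32e-05). Pttg1 had 1.86 ± 0.35 (adjusted p = 0.000247). Among the entry genes Cdk1, at 308 to 460 CPM in D10 ICM and 34.8 to 217 CPM in D10 TE, had 1.64 ± 0.41 (adjusted p = 0.00406). Ccnb1, with 235, 225, 235, 402 and 145 CPM in D10 ICM, had 1.61 ± 0.36 (adjusted p = 0.00144), and Cks1b, a Cdk1 subunit like Cks2, had 1.32 ± 0.32 (adjusted p = 0.00295). Neither Cdk1 nor Ccnb1 overlapped between the D10 tissues.

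The kinetochore and spindle classes, which have the most members, gave 10 and 6 of the 32 calls at D10. Bub1b had 16 to 35.9 CPM in D10 ICM, and 7, 7.8, 11.6, 5 and 2.6 CPM in D10 TE, a log2 fold change of 2.07 ± 0.37 (adjusted p = 0.000123). Cenpa had 231, 190, 214, 371 and 234 CPM in D10 ICM, all above its D10 TE values, and a log2 fold change of 1.50 ± 0.26 (adjusted p = 0.000113). Nek2 had 36.2, 17.4, 26.7, 34.9 and 4.4 CPM in D10 ICM and overlapped the D10 TE through replicate 5 (1.94 ± 0.47, adjusted p = 0.00289). Hmmr, with 36.2, 46, 16, 67.8 and 30.8 CPM in D10 ICM, had 1.86 ± 0.41 (adjusted p = 0.00122). Tpx2, with 76.9, 80.8, 118, 99.7 and 96.9 CPM in D10 ICM, was above every D10 TE library (1.25 ± 0.32, adjusted p = 0.00408).

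Chromosome genes differed between the D10 tissues as well, although none of them passed between the times in either tissue. The condensin I subunit Ncaph had 104, 127, 69.4, 108 and 128 CPM in D10 ICM, and 36.8, 47, 15.5, 28.5 and 23.8 CPM in D10 TE (1.83 ± 0.32, adjusted p = 9.68e-05). Its partner Ncapd2 had 90.5, 57.1, 69.4, 69.8 and 119 CPM in D10 ICM, and 28, 29.4, 19.3, 33.5 and 10.6 CPM in D10 TE (1.67 ± 0.32, adjusted p = 0.000295). Top2a had 358, 271, 310, 437 and 405 CPM in D10 ICM and a log2 fold change of 1.25 ± 0.31 (adjusted p = 0.00346), and Mki67 had 235, 170, 144, 204 and 198 CPM and 1.03 ± 0.37 (adjusted p = 0.0433). All 4 lay above every D10 TE library. Of the cytokinesis genes Racgap1 passed at 1.07 ± 0.40 (adjusted p = 0.0482), and Kif20b did not at 0.76 ± 0.37 (adjusted p = 0.143). Without any 1 library the count of 32 ran from 25, without D10 ICM replicate 4, to 34. Of the 32 calls 24 were made whichever library was left out. Of these fits only that without D10 ICM replicate 4 lost the calls of Aurka, Cdc20, Cenpe and Kif2c. Those of Ndc80, Kif22, Mki67 and Racgap1 were lost in 3 to 14 of the 20 fits, Ndc80 without D10 ICM replicate 3 or D10 TE replicate 1 or 4. Of the 24, Ccna2, Ccnb2, Cenpf, Incenp, Spc25 and Top2a were lost with libraries thinned to the smallest total (adjusted p from 0.107 to 0.332). So were Aurka, Cdc20, Cenpe and Racgap1.

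**Figure D5:**
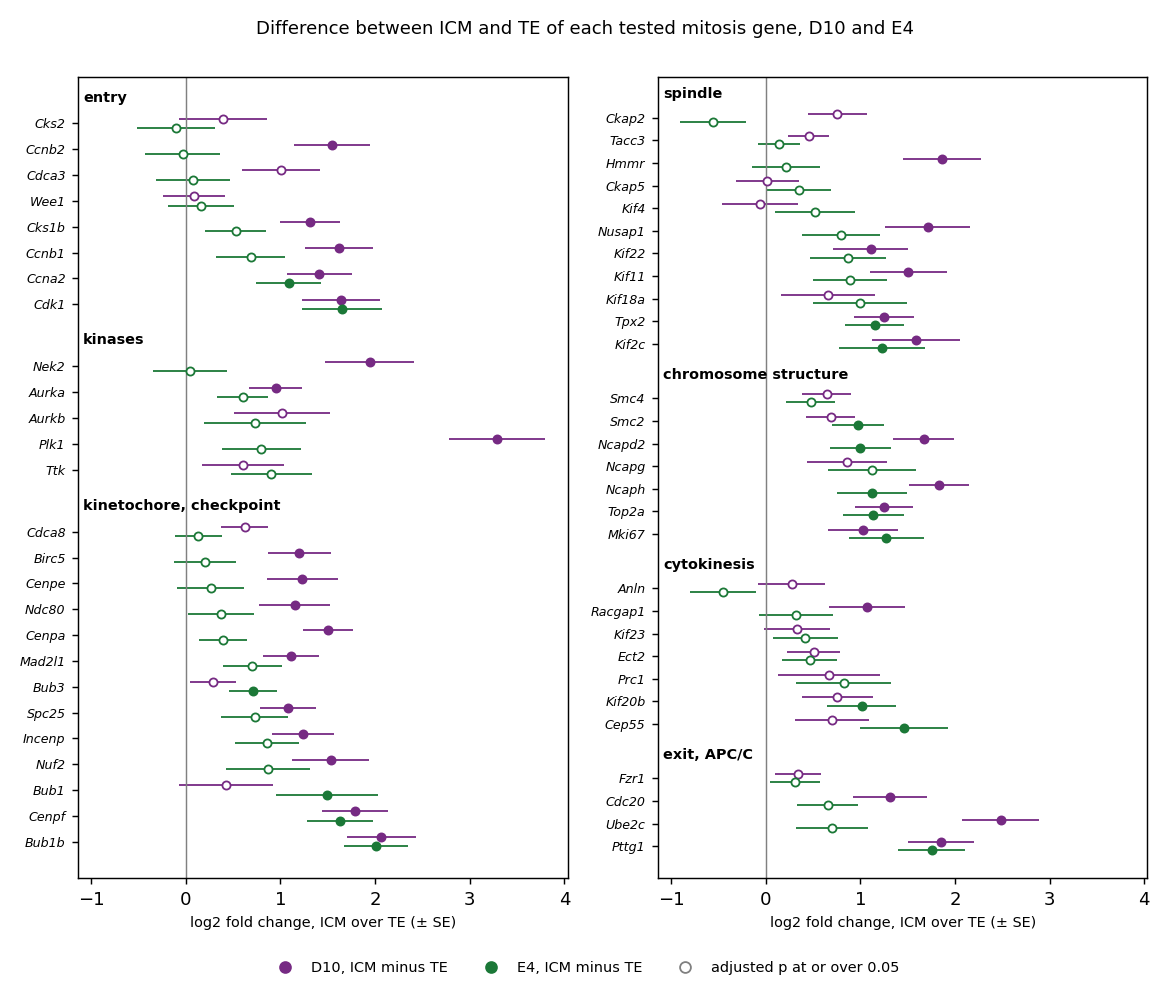
Log2 fold change of ICM over TE (x axis, ± SE) for each of the 55 tested genes (y axis, by class) at D10 (purple) and E4 (green), with filled points where the adjusted p was under 0.05. The purple point of Plk1 stands at 3.29 and the green point at 0.80, while Cdk1, Bub1b, Pttg1 and Top2a have both points filled and close together.

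At E4 the called members were also higher in the ICM, with 16 of 55 genes called (29.1%) and 0 lower, against 15.8% and 15.4% of all tested genes. No gene was lower at an unadjusted p under 0.05, nor with DESeq2 or limma voom. The median log2 fold change was 0.71, with 51 positive and 4 negative, against 0.04 over all tested genes. For 5 of the 55 every E4 ICM library was above every E4 TE library, a share under the 10.5% of all tested genes. For 0 of the 55 every library was below, against 10.1%. Chromosome structure had 5 calls of 7, the kinetochore class 4 of 13, and the entry, spindle and cytokinesis classes 2 each. The APC/C class had 1 of 4 and the kinases 0 of 5. With litter as a block the count was 21, with Ttk, Mad2l1, Incenp, Kif11 and Kif22 added, and the share of all tested genes was not computed. The count rested in part on the low E4 TE libraries, with 7 calls without E4 TE replicate 4 and 10 without E4 TE replicate 3. The calls of Bub1b, Cdk1, Cenpf, Pttg1, Smc2, Top2a and Tpx2 were made whichever library was left out, and each of the other 9 was lost in 2 to 11 of the 20 fits that left out 1 library. With libraries thinned to the smallest total, those of Cenpf, Smc2 and Tpx2 were lost too (adjusted p = 0.12, 0.198 and 0.0824). Leaving out replicate 4 of the E4 TE ended the calls of all 9 (Bub1, Bub3, Ccna2, Cep55, Kif20b, Kif2c, Mki67, Ncapd2 and Ncaph), and leaving out replicate 3 of the E4 TE those of the same genes except Cep55 and Mki67. Leaving out an E4 ICM library also ended calls. Without replicate 1 these were Bub1, Bub3, Kif2c and Kif20b, and without replicate 2 Bub3, Kif2c and Cep55. Without replicate 3 they were Kif2c, Kif20b, Ncapd2 and Ncaph, and without replicate 4 Bub1, Bub3 and Kif20b. Without replicate 5 they were Bub1, Bub3, Kif2c, Kif20b and Mki67. The other E4 TE libraries mattered too. Without E4 TE replicate 5 the calls of Bub1, Kif2c, Kif20b and Ncapd2 were lost, without replicate 1 Bub3 and Kif2c, and without replicate 2 Kif20b. Calls of Bub3, Kif2c and Kif20b were also lost without single D10 libraries.

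Bub1b had the smallest adjusted p of the members at E4. It had 52.4 CPM or more in every E4 ICM library, and 22.2, 28, 11.8, 9.6 and 20.7 CPM in E4 TE, and a log2 fold change of 2.01 ± 0.34 (adjusted p = 6.94e-05). Pttg1 had 1.75 ± 0.35 (adjusted p = 0.000468), Cdk1 1.65 ± 0.42 (adjusted p = 0.00383) and Cenpf, a protein of the outer kinetochore, 1.62 ± 0.35 (adjusted p = 0.000882). Ccna2, cyclin A2, had 1.09 ± 0.35 (adjusted p = 0.0183), though its 3′ end overlaps Exosc9 on the opposite strand. Among the spindle genes Kif2c, a microtubule-depolymerising kinesin, had 1.23 ± 0.45 (adjusted p = 0.0393), and Tpx2, with 165, 125, 132, 158 and 176 CPM in E4 ICM, had 1.15 ± 0.32 (adjusted p = 0.00683).

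The E4 chromosome calls were Mki67 (1.28 ± 0.40, adjusted p = 0.0155), Top2a (1.14 ± 0.32, adjusted p = 0.00844), Ncaph (1.13), Ncapd2 (1.00) and Smc2 (0.98 ± 0.27, adjusted p = 0.00712). Mki67 had 110, 209, 197, 235 and 324 CPM in E4 ICM and Top2a had 201, 292, 354, 264 and 431 CPM, and both overlapped their E4 TE values. Ncaph had 61, 64.8, 86.2, 29.6 and 69.7 CPM in E4 ICM, and 44.5, 40, 28.4, 9.6 and 34.5 CPM in E4 TE. Ncapd2 had 54.9, 87.3, 110, 94.6 and 82 CPM in E4 ICM, and 77.8, 64.1, 21.3, 40.4 and 27.6 CPM in E4 TE. Of the cytokinesis genes Cep55, with 54.9, 47.4, 26.5, 29.6 and 36.9 CPM in E4 ICM, had 1.46 ± 0.46 (adjusted p = 0.018) and Kif20b had 1.01 ± 0.37 (adjusted p = 0.0365).

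None of the kinases passed between the E4 tissues without the litter block, with which Ttk did. Plk1 had a log2 fold change of 0.80 ± 0.42 (adjusted p = 0.149), Ttk 0.90 ± 0.43 (adjusted p = 0.109) and Aurka 0.60 ± 0.27 (adjusted p = 0.0974). Nek2 and Hmmr, which fell in the D10 TE, had 0.04 ± 0.39 and 0.22 ± 0.36 at E4 (adjusted p = 0.947 and 0.682), and Cdc20 had 0.66 ± 0.33 (adjusted p = 0.129). Ccnb1 had 0.69 ± 0.36 (adjusted p = 0.153). Of the members, 11 were higher in the ICM at both times (Bub1b, Ccna2, Cdk1, Cenpf, Kif2c, Mki67, Ncapd2, Ncaph, Pttg1, Top2a and Tpx2). A further 21 were called at D10 and not at E4, and 5 at E4 and not at D10. The shares of all tested genes with these patterns were not computed. With the litter block Mad2l1, Incenp, Kif11 and Kif22 of the 21 passed at E4 too, and Smc2 of the 5 at D10. Of these genes edgeR's test of the difference between the times called Plk1 only.

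Among the 55 tested genes 12 passed in no comparison: Aurkb, Ect2, Fzr1, Kif18a, Kif23, Kif4, Ncapg, Prc1, Smc4, Tacc3, Ttk and Wee1. The share of all tested genes that passed in none was not computed. Wee1, the kinase that holds Cdk1 inactive, had log2 fold changes between -0.09 and 0.16 in the 4 comparisons, with SE up to 0.35. Fzr1, which keeps the APC/C active outside mitosis, had -0.01 to 0.34 with SE up to 0.26. With litter as a block, Ttk of these 12 passed between the tissues at E4 (1.02, adjusted p = 0.0417) and Smc4 at D10 (0.70, adjusted p = 0.0302). The 3′ ends of Fzr1, Ncapg and Prc1 overlap genes on the opposite strand, and pseudogenes or copies named after Ccnb1, Ccnb2, Cks1b, Kif4 and Kif22 may share reads with them. The 4 members with too few counts were Cdc25b, Cdc25c, Kif20a and Ube2s. Over a whole group of 5 libraries the phosphatase Cdc25b had 17 counts in D10 ICM, 13 in D10 TE, 7 in E4 ICM and 11 in E4 TE, and Cdc25c had 13 in D10 ICM, 4 in D10 TE, 13 in E4 ICM and 3 in E4 TE. The cytokinesis motor Kif20a had 1 count in each group, so no difference was detectable at this depth. Ube2s, the E2 that extends APC/C chains, had 0 in D10 ICM, 4 in D10 TE, 10 in E4 ICM and 2 in E4 TE. The 3′ ends of Kif20a and Ube2s also overlap genes on the opposite strand.

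The members followed each other across libraries to very different degrees. Over the 20 libraries, which share the 4 group contrasts, the correlation of a gene's log2 CPM with the mean of the members was 0.944 for Tpx2, 0.941 for Ube2c, 0.94 for Plk1 and 0.932 for Ccna2. It was 0.147 for Ckap2 and 0.113 for Wee1, and 0.763 for Top2a and 0.721 for Mki67. The 8 tested genes outside the list most like that mean were Cdca2 (0.94), Tmem97 (0.913), Gldc (0.903), Sgo1 (0.899), Phlda1 (0.899), Rsl1d1 (0.893), Dppa2 (0.892) and Spry2 (0.874). Cdca2 and Sgo1 act in mitosis themselves, and Dppa2 is a gene of pluripotent cells. Of the tested members with a promoter in the table, 12 of 35 with TTTGAA and 5 of 14 without it fell in the TE.

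A further list of 147 genes of the mitotic machinery held 141 genes of the table, of which 112 were tested. In the TE 9 fell (8.04%) and 5 rose (4.46%) at D10 against E4, and in the ICM 5 fell (4.46%) and 4 rose (3.57%), all under the shares of all tested genes given above, with medians of -0.09 and -0.08 on the log2 scale. Between the tissues 31 were higher (27.7%) and 7 lower in the ICM at D10, against 12.9% and 12.6% of all tested genes. At E4 19 were higher (17%) and 5 lower, against 15.8% and 15.4%, so the share higher was near the background. Cdc25a, the phosphatase that activates Cdk2 and Cdk1, rose in the TE by 1.98 ± 0.26 (adjusted p = 6.33e-06) and had -0.13 ± 0.25 in the ICM, a difference of -2.10 ± 0.36 (adjusted p = 0.000784). Kpna2, an importin of spindle factors, fell in the TE by 2.33 ± 0.48 (adjusted p = 0.000881). Ran, the GTPase of spindle assembly and nuclear transport, fell in the TE by 1.12 ± 0.19 (adjusted p = 0.00011) and in the ICM by 0.74 ± 0.19 (adjusted p = 0.00553). The centromere gene Cenpm was higher in the ICM at D10 by 3.53 ± 0.56 (adjusted p = 3.19e-05), and Sgo1, the protector of centromeric cohesin, by 1.82 ± 0.41 (adjusted p = 0.00153). At E4 the separase gene Espl1 was higher in the ICM by 3.13 ± 0.51 (adjusted p = 4.35e-05), and Mybl2, the B-Myb factor that acts through MuvB, by 2.61 ± 0.41 (adjusted p = 3.08e-05).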

How the data were processed

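Polyadenylated RNA was measured by BRB-seq, which counts 3′ ends, with a molecular identifier (UMI) of 10 bases, a barcode of 9 bases and an insert of 81 bases per the labels' protocols. The values are raw counts per gene and library, deposited by the authors as a table of 21470 genes and 20 libraries. Per the submitters' processing notes the tools included featureCounts 2.0.1, HISAT2 2.2.1, UMI-tools and Trim Galore 0.6.7, and the builds GRCh38 and GRCm38. No source used here gives UMI collapsing, strand or annotation, so counting limits cover counting error only.

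Counts were tested with edgeR 4.0.16 (quasi-likelihood, TMM) in R 4.3.3, in 1 fit of all 4 groups, on the 6943 genes kept by filterByExpr at a minimum count of 10. P-values were adjusted by Benjamini-Hochberg over these genes, at a threshold of 0.05, and SE is that of the log2 fold change. The script was tested on simulated data. CPM use TMM-scaled totals, except for the limits of 3 counts. Libraries of a group differed by more than counting noise (lowest chi-square per degree of freedom 3.05 over 40 pairs). Libraries of the same litter deviated together, with a mean correlation of 0.168 at D10 and 0.177 at E4, so a fit with litter as a block was tried for comparisons of the tissues. Other alternatives changed the scaling, filter, tool (DESeq2 1.42.0, limma voom 3.58.1), depth and libraries.

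Coordinates are those of GENCODE M21 (GRCm38), which held 21442 of the 21470 gene IDs, and promoters those of RefSeq. The genes, the lists and the naming rule were chosen with earlier results of these data known. The rule gave every library's values for Plk1, Cdk1, Ccnb1, Mki67, Top2a and the 2 genes per class with the smallest p, and tests for up to 2 genes per class and for genes called against the main direction. Other genes were named after their values were seen. No column of per-sample values was left unused.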

Additional observations from a re-analysis of the deposited data

Results flagged for a closer look

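In 3 of 72 profiles, each of a named gene or of the members' sum in a group, 1 library lay outside the range that Dixon's test at 95% allows. Chance alone gives about 1 in 20. Plk1 was at 182.4 CPM in D10 ICM replicate 4, with the nearest of the other D10 ICM libraries at 88.1 CPM. Cenpa was at 370.8 CPM in the same library, with the nearest at 233.5 CPM. That library was the deepest of the series, at 1010354 counts, and had the highest summed level of the members in its group, 7731 CPM, and of the blood markers, 124 CPM. Their part in these values was not tested. Cdk1 was at 906.6 CPM in E4 ICM replicate 5, with the nearest at 486.2 CPM.

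The change of Plk1 between D10 and E4 differed between ICM and TE by 2.49 on the log2 scale in edgeR's test of the interaction (adjusted p = 0.0265). The lower level of Plk1 at D10 was shown by 5 of 5 TE libraries, all below the E4 TE range, and by 4 of 5 ICM libraries, which were below the E4 ICM range.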

How the results depend on the processing

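Of the calls made by edgeR, 3 of 6 between the times in the ICM, 9 of 17 between the times in the TE, 4 of 16 between the tissues at E4 and 18 of 32 between the tissues at D10 were made under every alternative that tested the gene, and the call of Plk1 for the difference was not. Thinned to the smallest library total, 35 members could be tested, with 1 higher and 1 lower between the times in the ICM, 6 lower in the TE, 4 higher between the tissues at E4, 13 at D10 and 0 for the difference. Without the zona litters of E4 there were 1 higher in the ICM, 11 lower in the TE and 0 for the difference. A minimum count of 30 gave 2 lower in the ICM. For the difference there were 5 calls with no filter beyond 1 count, 2 by the DESeq2 Wald test, 0 by limma voom and 2 with litter as a replicate block. The block changed no other count by more than 1.5 times. A block was not used between the times, whose litters differ.

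Leaving out 1 library at a time gave 1 to 3 higher and 2 to 7 lower between the times in the ICM, 15 to 22 lower in the TE, 7 to 20 higher between the tissues at E4, 25 to 34 at D10, and 0 to 4 for the difference. The sign changed only for genes that were not called. Smc2 in the ICM was at 0.15 when thinned, and Mki67 in the TE at -0.32 when thinned. Without these litters, Ccnb1 in the ICM was at -0.002 and Cdk1 in the TE at 0.10. With 1 library left out, the ranges were -0.23 to 0.22 for Ccnb1 and -0.31 to 0.01 for Mki67 in the ICM, and -0.28 to 0.39 for Mki67 and -0.14 to 0.51 for Top2a in the TE. The cause was not tested in any of these.

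Scaling by DESeq2 size factors or by the upper quartile left the members' medians between -0.46 and -0.44 in the ICM, -0.72 and -0.71 in the TE, 0.69 and 0.73 at E4 and 1.11 and 1.12 at D10. Depth limits Plk1, Nek2, Bub1b, Cks2 and Nusap1 in the D10 TE, which had 26, 16, 18, 18 and 25 counts over the group.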
